A study of Mus musculus with 5 samples.

Results

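The lipoxygenases and the enzymes of eicosanoid synthesis were followed as 8 listed genes, Alox15, Alox5, Alox5ap, Alox12e, Ptgs1, Ptgs2, Ltc4s and Lta4h. Every probe set (a group of short oligonucleotides for 1 transcript) whose platform annotation gives exactly 1 gene symbol, and whose symbol or synonym is one of these, was taken. This gave 7 probe sets of 5 genes, of 12422 probe sets in all, of which 10833 have 1 symbol and name 8251 genes. For Alox5, Alox5ap and Ptgs1 no probe set matched under this rule, and they are not analysed here. The arrays carry RNA labelled as murine lung from A-J mice that received saline (2 arrays) or IL13 (interleukin-13, 3 arrays) through the trachea. All mice were of the same strain, and no mutant allele, dose, age or animal number was given in the sources used here. The sample titles also carry a number, which is 6 or 48 in the saline group and 6, 18 or 48 in the IL-13 group. These may be times, but no unit is stated, so each array is called by its treatment and its number, and every combination was a single array. The title of IL-13 6 also ends in s3, where all other titles end in s2. What this ending marks is not stated, and it cannot be told apart from that array's treatment and number.

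Eicosanoids are signalling lipids made from arachidonic acid, which phospholipases release from membranes. Lipoxygenases and cyclooxygenases oxygenate it along separate branches: the former lead to hydroxy acids, lipoxins and leukotrienes, the latter to prostaglandins and thromboxane. In the airway, cysteinyl leukotrienes contract smooth muscle and promote mucus and oedema, and Alox15 is a known target of IL-13 signalling through the transcription factor STAT6 in human airway epithelium and in macrophages.

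Alox12e, the epidermal lipoxygenase, and Alox15 lie next to each other among the protein-coding genes of chromosome 11 in the RefSeq annotation (GRCm38.p6), with Alox12, the platelet-type lipoxygenase, on the other side of Alox12e. The promoter windows of Alox12e, the gene whose signal ranged most between arrays, and of Lta4h, the gene whose signal ranged least among those tested, are shown from RefSeq (GRCm38.p6) as 250 bases before to 50 after the start of the gene. The Alox12e window is chr11:70322481-70322780 on the minus strand and the Lta4h window is chr10:93453146-93453445 on the plus strand. Capitals mark the GC box GGGCGG, found on either strand.
Alox12e: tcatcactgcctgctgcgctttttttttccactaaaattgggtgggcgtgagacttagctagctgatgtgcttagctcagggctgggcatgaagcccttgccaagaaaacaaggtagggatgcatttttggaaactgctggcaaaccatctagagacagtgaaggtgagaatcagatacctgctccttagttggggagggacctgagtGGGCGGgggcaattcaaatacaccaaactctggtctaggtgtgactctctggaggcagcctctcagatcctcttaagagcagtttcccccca
Lta4h: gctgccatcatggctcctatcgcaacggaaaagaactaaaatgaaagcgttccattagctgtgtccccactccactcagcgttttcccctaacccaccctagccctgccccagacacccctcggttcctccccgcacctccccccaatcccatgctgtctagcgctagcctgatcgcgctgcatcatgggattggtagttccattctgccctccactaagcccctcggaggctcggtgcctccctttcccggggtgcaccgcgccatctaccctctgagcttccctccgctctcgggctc
The GC box was present 1 time in the Alox12e window and 0 times in the Lta4h window, and 35.7% of 32851 RefSeq promoter windows held it. The palindrome TTCNNNNGAA, the spacing that STAT6 prefers, was in neither window, nor was TTCNNNGAA, the spacing of other STAT proteins. Of all windows, 6.95% held the former and 8.3% the latter, searched on both strands. With no match of either, there was no overlap with the GC box. These matches describe letters in a short window only.

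The deposited values are intensities on a linear scale. They were brought to a common trimmed mean, and values below the pooled 20th percentile (55.28, the floor) were set to it before log2 was taken. The median intensity of an array lay between 324.4 and 358.4. A probe set was tested with limma where 2 or more arrays exceeded 210.2, the pooled 40th percentile, which left 7811. Across the log2 values of these, any pair of arrays correlated with a Pearson's r between 0.913 and 0.956. Among lung markers, the club cell gene Scgb1a1 read between 22024 and 31024 on every array, whereas the alveolar gene Sftpc read 17179 on IL-13 18 and between 194.3 and 2615 on the other 4. The summed signal of 7 salivary gland genes was 97950 on saline 6 and between 548.8 and 698.2 elsewhere, so that 1 of the 2 saline arrays stood apart from all others in content. Nothing in the labels says whether arrays came from separate animals, so that a p-value here rests on the spread among arrays, which may be technical. In such bulk tissue, fewer cells of a type and less RNA per cell cannot be told apart.

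Alox15 and Alox12e, the lipoxygenase genes among the members with a probe set, were brightest on IL-13 6, intermediate on IL-13 18 and dimmest among the IL-13 arrays on IL-13 48, while Lta4h and Ltc4s of the leukotriene branch ranged less. No member passed the limma test of IL-13 against saline: of the 5 member probe sets tested, 0 were called higher and 0 lower, with 0.0128% of all probe sets tested called higher and 0.0384% called lower. The lowest adjusted p among them was 0.546, and 0 had an unadjusted p under 0.05. The median log2 difference over the 5, of which 2 are of Alox12e, was 0.65, beside 0.04 over all probe sets tested. It rested on IL-13 6: without that array it was -0.06, beside 0.05. It was 0.25 without saline 48 and 1.24 without IL-13 48. The members and the lists below were chosen with earlier results of these data known.

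**Figure D1:**
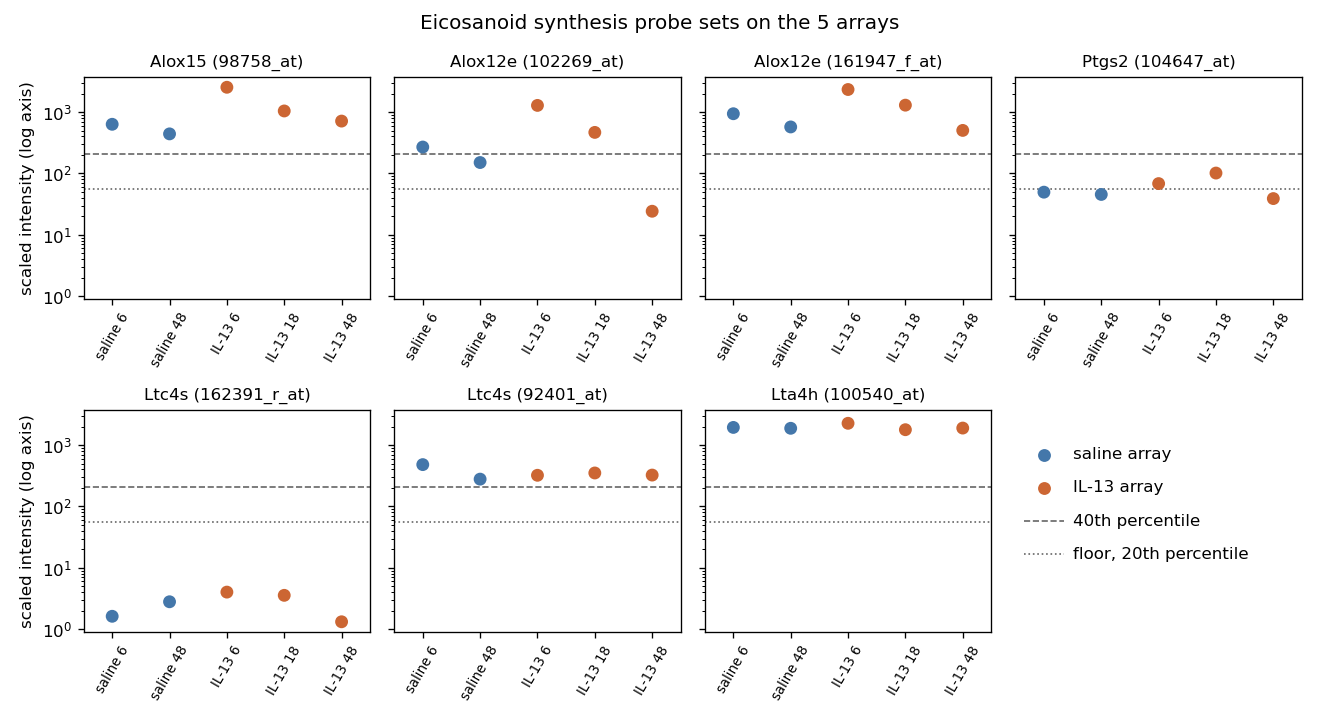
Scaled intensity (log axis) of the 7 member probe sets on each array, blue for saline and orange for IL-13, with the floor (55.28) dotted and the 40th percentile (210.2) dashed. Alox15 and both Alox12e probe sets peak on IL-13 6, Lta4h stays between 1777 and 2259, and Ptgs2 and one Ltc4s probe set lie below the dashed line on all 5 arrays.

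Alox15 encodes the leukocyte-type lipoxygenase, which inserts oxygen into arachidonic and linoleic acid. The intensity of its probe set 98758_at was 631.6 (saline 6) and 440.9 (saline 48) against 2530 (IL-13 6), 1041 (IL-13 18) and 712.3 (IL-13 48). Each IL-13 array exceeded both saline arrays, the only one of the 5 member probe sets for which this held, beside 14.8% of all probe sets tested. For 11% of all probe sets tested, and for 0 members, all 3 lay below. The log2 difference of means was 1.22 (SE 0.52), or 2.34-fold, with a 95% interval from -0.02 to 2.47 and an unadjusted p of 0.0532 (adjusted p = 0.546, limma). The 2 saline arrays differed 1.43-fold from each other, and IL-13 48 was 1.13-fold above saline 6. The log2 difference was 0.71 without IL-13 6, 1.62 without IL-13 48 and 1.48 without saline 6.

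Alox12e encodes a lipoxygenase of epidermis and other squamous epithelia. On its probe set 102269_at the intensity was 269.2 (saline 6) and 150.6 (saline 48) against 1282 (IL-13 6), 466.1 (IL-13 18) and 24.25 (IL-13 48), the last of them below the floor. Both IL-13 6 and IL-13 18 exceeded the saline arrays and IL-13 48 lay under them, so the groups overlapped. The log2 difference was 0.67 (SE 1.21, 95% interval -2.23 to 3.57, adjusted p = 0.896, limma), and it was -0.33 without IL-13 6, 1.94 without IL-13 48 and 1.09 without saline 6. The second probe set, 161947_f_at, read 938.5, 571.8, 2327, 1294 and 502.1 on the same arrays in the same order. Its ending marks probes that related transcripts may share. It gave a log2 difference of 0.65 (SE 0.62, 95% interval -0.83 to 2.13, adjusted p = 0.787, limma), ranging from 0.14 without IL-13 6 to 1.24 without IL-13 48. Both probe sets ordered the IL-13 arrays alike, with saline 6 above saline 48 on each.

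Set against the saline array of the same number, IL-13 6 was 4.01-fold higher for Alox15, 4.76-fold for Alox12e on 102269_at and 2.48-fold on 161947_f_at. These 3 of the 7 member probe sets, of 2 genes, were at least 2-fold higher with the brighter array above the pooled median of 343, beside 1.84% of all 12422 probe sets. No member was at least 2-fold lower in that pair, beside 2.14%. At 48, Alox15 was 1.62-fold higher and Alox12e was at least 2.72-fold lower on 102269_at and 1.14-fold lower on 161947_f_at. Since 102269_at did not exceed the median on either array there, 0 members counted as at least 2-fold higher (0.596% of all probe sets) and 0 as lower (1.09%). IL-13 18 has no saline array of its own number: Alox15 was 1.65-fold above saline 6 and 2.36-fold above saline 48, and 102269_at was 1.73-fold and 3.09-fold above them. Each of these sets 1 array against 1 and has no test, and neither has the difference between the pairs.

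**Figure D2:**
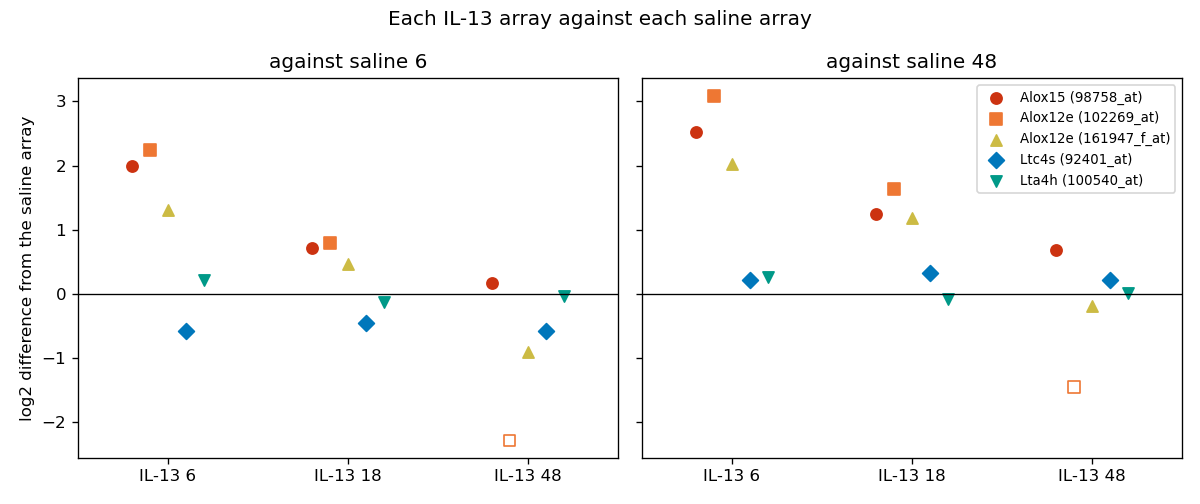
Log2 difference of each IL-13 array from saline 6 (left) and from saline 48 (right) for the 5 tested member probe sets; open symbols are bounds, where the IL-13 array lay below the floor. Alox15 lies above 0 against both saline arrays in all 3 cases, from 0.17 to 2.52, whereas both Alox12e probe sets cross below 0 on IL-13 48.

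IL-13 6 was the highest of the 5 arrays for 4 of the 5 member probe sets tested (Alox15, both of Alox12e, and Lta4h), beside 19.6% of all probe sets tested. A stricter criterion, chosen after the values were seen, asked for at least 2-fold over every other array. It was met by Alox15 (2.43-fold over the next array) and by Alox12e on 102269_at (2.75-fold), 2 of the 18 probe sets, or 0.23% of those tested, that met it.

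Lta4h encodes leukotriene A4 hydrolase, which makes the neutrophil attractant leukotriene B4. Its probe set 100540_at gave intensities of 1935 (saline 6) and 1873 (saline 48) against 2259 (IL-13 6), 1777 (IL-13 18) and 1889 (IL-13 48). The saline arrays lay inside the range of the IL-13 arrays, and the highest array was 1.27-fold above the lowest. The log2 difference was 0.05 (SE 0.18, adjusted p = 0.951, limma), with a 95% interval from -0.39 to 0.48.

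Ltc4s encodes leukotriene C4 synthase, the enzyme that joins glutathione to leukotriene A4 at the head of the cysteinyl leukotrienes. On 92401_at the intensity was 480 (saline 6) and 278.4 (saline 48) against 321.7 (IL-13 6), 350.8 (IL-13 18) and 324.3 (IL-13 48). The saline arrays enclosed the 3 IL-13 arrays, which differed little from each other. The log2 difference was -0.14 (SE 0.26, 95% interval -0.75 to 0.48, adjusted p = 0.897, limma), and it was 0.25 without saline 6 and -0.53 without saline 48. The second probe set, 162391_r_at, read between 1.325 and 4.03 and never reached the floor, so that no fold is given.

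Ptgs2 encodes the inducible cyclooxygenase. Its probe set gave 49.58 (saline 6) and 45.51 (saline 48) against 68.37 (IL-13 6), 101.5 (IL-13 18) and 38.99 (IL-13 48). It exceeded the floor on IL-13 6 and IL-13 18 and lay below it on the other 3 arrays, and it did not reach 210.2 on any, so it was not tested. On IL-13 18 it was at least 1.84-fold above either saline array.

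Genes whose profile over the 5 arrays was most like that of a member were named by Pearson's r of log2 values, a description over 5 points that share the same scaling. The candidates were 1097 tested genes with a range of at least 1 log2 unit. The nearest to Alox15 were Ido1 (r = 0.9797, an r_at probe set), which breaks down tryptophan, the keratin gene Krt6b (r = 0.9717) and Ggcx (r = 0.9686), a carboxylase that depends on vitamin K. Krt6b read 1036 (saline 6), 895.3 (saline 48), 1992 (IL-13 6), 1238 (IL-13 18) and 1265 (IL-13 48), so it too peaked on IL-13 6. The nearest to Alox12e on 102269_at were the collagen gene Col26a1 (r = 0.9819), the histamine receptor gene Hrh2 (r = 0.9814) and the keratin gene Krt7 (r = 0.9453). On 161947_f_at, Col26a1 and Hrh2 came first again, at 0.9666 and 0.9651, before Mlph (r = 0.9644), a melanosome transport protein. Alox15 ranked 13 for that probe set (r = 0.8934) and 38 for 102269_at (r = 0.7867). Ido1, Ggcx and Hrh2 exceeded the intensity required for testing on IL-13 6 and IL-13 18 only. They therefore became candidates through the arrays on which Alox15 and Alox12e were brightest. Part of their likeness to these members may thus be set by that condition, and its share was not tested.

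Markers of other cells were set beside these profiles. The summed signal of 12 squamous epithelium genes was 31919 (saline 6) and 37606 (saline 48) against 76283 (IL-13 6), 52478 (IL-13 18) and 47364 (IL-13 48), highest on IL-13 6 as were Alox15 and Alox12e. Within that list Krt6a read 13137 and Sprr2b 19622 on IL-13 6, against at most 4889 and 11479 on the other arrays, while Ivl was below the floor on all 5 and the basal keratins Krt5 and Krt14 read at most 107.8. Of the 12 genes, 5 were highest on IL-13 6. Without Sprr2b and Krt6a, the genes of widest range, the sum was 27245 and 31945 with saline and 43525 (IL-13 6), 36832 (IL-13 18) and 38241 (IL-13 48). It was still highest on IL-13 6, but the IL-13 arrays were no longer ordered as for the lipoxygenases. With or without these genes, the sum was higher on saline 48 than on saline 6, the reverse of Alox15 and Alox12e. On IL-13 48 the sum lay above both saline arrays, as did Alox15 (712.3 against 631.6 and 440.9). Both Alox12e probe sets lay under the saline arrays there. The part of squamous cells in the lipoxygenase values was not tested. Eosinophils are a further source of Alox15 in some tissues. Of the 5 eosinophil genes with a probe set, Epx, Prg2 and Il5ra were below the floor on all 5 arrays. None of the 5 was bright enough to be tested. The sum of the 5 was 175.8 and 186.6 with saline and from 121.1 to 181.9 with IL-13. Without Prg3 the sum was 42.74 (saline 6) and 111 (saline 48) against 120.9 (IL-13 6), 88.09 (IL-13 18) and 107.2 (IL-13 48). It was then highest on IL-13 6, with overlapping groups. The sum of 12 macrophage and dendritic cell genes was 20511 (saline 6) and 23247 (saline 48) against 24641 (IL-13 6), 28111 (IL-13 18) and 24592 (IL-13 48). Its peak on IL-13 18 rested on Chil3, a chitinase-like protein gene. Without Chil3 the sum was 20123 (saline 6) and 23155 (saline 48) against 22075 (IL-13 6), 20516 (IL-13 18) and 21409 (IL-13 48), with overlapping groups. The sum of 10 mast cell and basophil genes was 3321 on IL-13 18, against 2209 to 3132 elsewhere. Without Kit and Hdc it was 1542 there and highest, at 1679, on IL-13 48. The sum of 12 neutrophil genes was 24870 on IL-13 6, against 17209 to 19501 elsewhere, with 20913 of it from Ltf, which glands and epithelia also express. Without Ltf it was 3958 on IL-13 6 and 3894 on IL-13 18, against 2614 to 2938 elsewhere, and 3 of the 12 genes were highest on IL-13 6. Without Ltf and Csf3r the sum was 2422 on IL-13 6 and highest, at 2855, on IL-13 18, against 1912 to 2231 elsewhere.

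Around the members, 88 genes of the pathway were listed in 7 groups. Of these, 66 had a probe set and 43 were tested, each by its brightest probe set: the mean with IL-13 was higher for 23 and lower for 20, and 0 were called in either direction. The groups did not overlap for 10 of the 43, with IL-13 above saline in 6 cases and below in 4. Of all probe sets tested, 14.8% lay above and 11% below in this way, so these counts were near the general share. An unadjusted p under 0.05 (limma) was found for 6 of the 43, beside 723 of all 7811 probe sets tested. It was found for 3 without IL-13 18 or without IL-13 48.

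Phospholipases and related lipases, which supply the fatty acid, had 11 tested genes, 3 higher and 8 lower in mean, with a median log2 difference of -0.21. Mgll, which releases arachidonic acid from a monoacylglycerol, read 3009 (saline 6) and 1830 (saline 48) against 1476 (IL-13 6), 1486 (IL-13 18) and 1649 (IL-13 48). The groups did not overlap, but saline 6 stood well above saline 48, and the log2 difference was -0.61 (SE 0.24, adjusted p = 0.529, limma), and -0.25 without saline 6. The lipid droplet lipase Pnpla2 differed by -0.56 and the pancreatic-type phospholipase Pla2g1b by -0.46, both brightest on saline 6 (12329 and 5150). Without that array these were -0.17 and 0.48. Pla2g4a, the cytosolic phospholipase that feeds both branches, differed by 0.47 (SE 0.32), with overlapping groups, and by 0.10 without saline 6.

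Other lipoxygenases and the membrane proteins related to Ltc4s gave 6 tested genes, 5 higher and 1 lower, median 0.25. Mgst3, a microsomal glutathione transferase, read 3516 (saline 6) and 4038 (saline 48) against 5737 (IL-13 6), 4452 (IL-13 18) and 4567 (IL-13 48). Its groups did not overlap, with a log2 difference of 0.37 (SE 0.19, adjusted p = 0.62, limma). The epidermal lipoxygenase genes Aloxe3 and Alox12b differed by 0.18 and 0.32, and without saline 6 by 0.23 and 0.00. Aloxe3 was highest on IL-13 6 but ranged only from 583.9 to 726.1, and Alox12b was highest on IL-13 48 (726.6). Alox12 read between 192.5 and 274.5, with a log2 difference of -0.06. Mgst2, which can also make leukotriene C4, read 401 on saline 6 and from 871.6 to 1653 on the others.

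Terminal prostanoid synthases gave 6 tested genes, 3 higher and 3 lower, median 0.06. Ptgds, a prostaglandin D synthase, read 1153 (saline 6) and 1238 (saline 48) against 1751 (IL-13 6), 1981 (IL-13 18) and 1645 (IL-13 48) on 102105_f_at. The groups did not overlap, and the log2 difference was 0.58 (SE 0.17, unadjusted p = 0.0135, adjusted p = 0.437, limma), from 0.51 to 0.64 over all alternatives. Its other probe sets did not show this: 92545_f_at read 184.8 and 179 with saline and from 120.7 to 161.6 with IL-13, and 92546_r_at read at most 83.35. The prostaglandin E synthase Ptges differed by 0.38, the prostacyclin synthase Ptgis by 0.35 and the thromboxane synthase Tbxas1 by -0.34, each with overlapping groups. Without saline 6 Ptges gave -0.07 and Tbxas1 -0.14.

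Receptors gave 5 tested genes, 3 higher and 2 lower, median 0.03. Tbxa2r, the thromboxane receptor, read 334.2 (saline 6) and 393.3 (saline 48) against 135.9 (IL-13 6), 154.9 (IL-13 18) and 148.8 (IL-13 48). Only the saline arrays exceeded the 40th percentile, and all IL-13 arrays lay below it. Tbxa2r therefore met the condition for testing, 2 or more arrays above that percentile, through the saline group alone. Every IL-13 array lay under both saline arrays, with a log2 difference of -1.31 (SE 0.17, 95% interval -1.73 to -0.89). Its unadjusted p of 0.0002 did not pass adjustment over all probe sets (adjusted p = 0.183, limma). Against the saline array of equal number, IL-13 6 was 2.46-fold and IL-13 48 was 2.64-fold lower. The log2 difference lay between -1.43 and -1.19 when 1 array was left out. With the floor raised to the 40th percentile the difference was -0.79. The summed signal of 7 T cell genes was lower on the same arrays, with 7994 (saline 6) and 9784 (saline 48) against 2255 (IL-13 6), 4674 (IL-13 18) and 1552 (IL-13 48), and was so without the 2 genes of widest range, Cd8b1 and Cd3e. Platelet genes, of another cell known for this receptor, summed to 312.1 and 362.3 with saline and from 327.2 to 509.3 with IL-13, and none was bright enough to be tested. Smooth muscle genes summed to 21110 and 19366 with saline and from 18790 to 23194 with IL-13. Endothelium genes summed to 8101 and 6737 with saline and from 6600 to 8775 with IL-13. The part of any of these cell types in the Tbxa2r values was not tested. The prostaglandin D receptor Ptgdr2 differed by 0.16 and the prostaglandin E receptor Ptger4 by -0.11, within the spread of the arrays, and without saline 6 by 0.33 and 0.42.

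Breakdown and transport genes gave 5 tested genes, 2 higher and 3 lower, median -0.21. Ephx2, the soluble epoxide hydrolase, read 1087 (saline 6) and 689.5 (saline 48) against 690.9 (IL-13 6), 444.2 (IL-13 18) and 440.8 (IL-13 48). IL-13 6 and saline 48 were nearly equal, and the log2 difference was -0.75 (SE 0.30, adjusted p = 0.529, limma), or -0.43 without saline 6. Ptgr1, which inactivates leukotriene B4 and prostaglandins, differed by 0.77 (SE 0.39), with saline 6 (1316) far below the other 4 arrays (3041 to 3995). Without saline 6 it was 0.10. Of the cytochromes P450, only Cyp2c38 was tested, on an f_at probe set, with a log2 difference of 0.22, or 0.76 without saline 6.

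Annexins and regulators gave 9 tested genes, 6 higher and 3 lower, median 0.25. Each IL-13 array exceeded both saline arrays for 3 of the 9, Anxa1, Anxa2 and Anxa5, each by its brightest probe set. This held for 14.8% of all probe sets tested. Anxa1, an inhibitor of phospholipase activity, read 5848 (saline 6) and 8699 (saline 48) against 14807 (IL-13 6), 9949 (IL-13 18) and 8914 (IL-13 48) on 93038_f_at. It was highest on IL-13 6, and the log2 difference was 0.62 (SE 0.29, adjusted p = 0.583, limma), or 0.33 without saline 6. Of its other probe sets, 161703_f_at differed by only 0.08, with overlapping groups. The other, 93037_i_at, was also higher with IL-13, by 0.80 (SE 0.32, adjusted p = 0.529, limma). On 93037_i_at the groups did not overlap, but saline 6 (786) stood well below saline 48 (1632), with 1762 to 2089 on the IL-13 arrays. Anxa2 differed by 0.52 (SE 0.17, adjusted p = 0.48) and Anxa5 by 0.50 (SE 0.17, adjusted p = 0.483), both by limma. The nuclear receptor gene Pparg differed by -0.53 (SE 0.33), with saline 6 highest at 561.9, and by -0.09 without it.

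**Figure D3:**
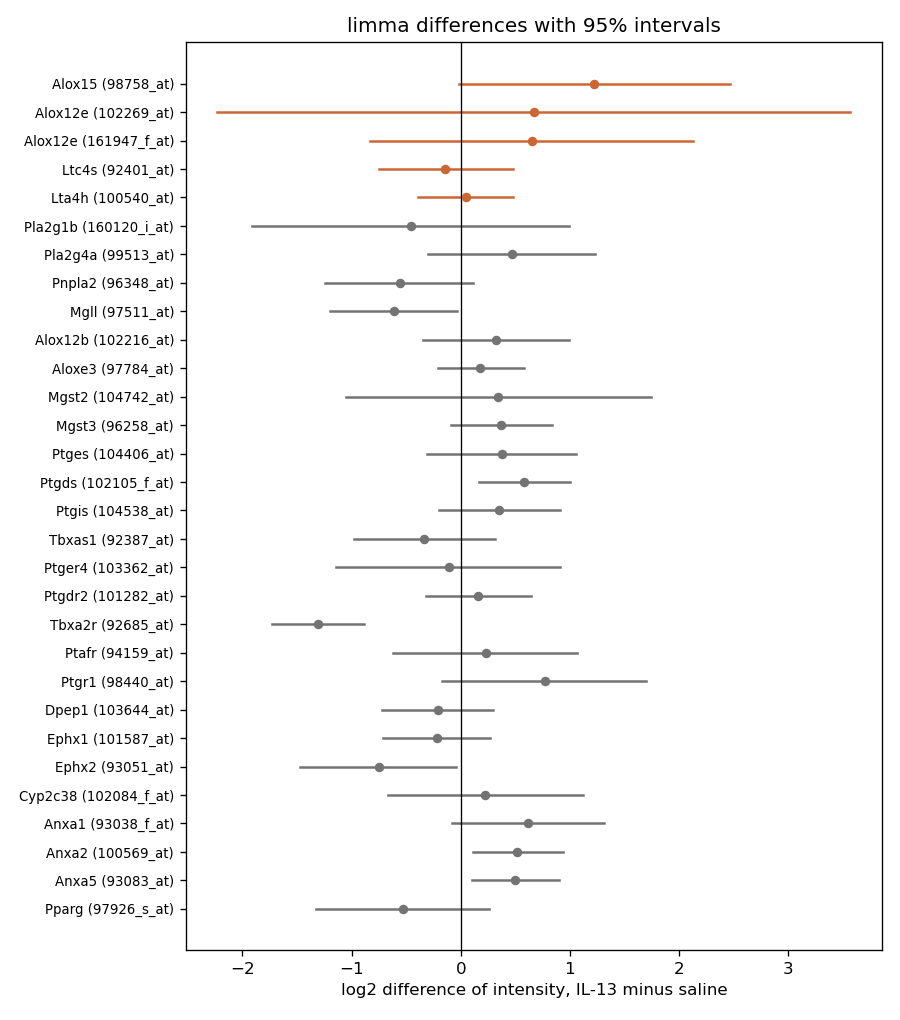
Log2 difference of intensity, IL-13 minus saline, with its 95% interval from the limma fit (2 saline and 3 IL-13 arrays), for the 5 tested member probe sets (orange) and the named pathway genes (grey). The widest interval is that of Alox12e on 102269_at, from -2.23 to 3.57, and Tbxa2r lies farthest below 0, at -1.31.

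**Figure D4:**
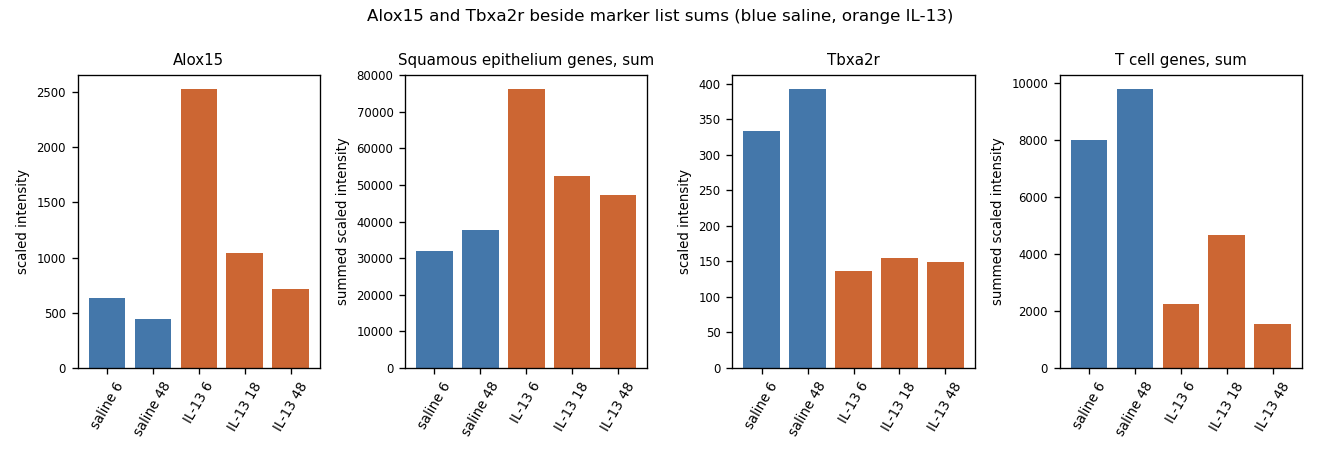
Scaled intensity of Alox15 and Tbxa2r on each array (blue saline, orange IL-13), each beside the summed scaled intensity of a marker list, all axes from 0. Alox15 and the 12 squamous epithelium genes both peak on IL-13 6, and Tbxa2r and the 7 T cell genes are both lower on the 3 IL-13 arrays.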

How the data were processed

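RNA of lung from A-J mice was measured on 5 mouse expression arrays. The authors deposited 1 table of intensity values for 12488 probe sets on a linear scale. How the scanner values were summarised, by which software and to what target is not stated in the labels or headers. The deposited columns had nearly equal 2% trimmed means (800.39 to 800.47), so the authors had scaled them. From these intensities, 66 control probe sets were removed, arrays were scaled to 1 trimmed mean, a floor was set at the pooled 20th percentile and log2 was taken. Symbols came from the platform annotation (10833 probe sets with 1 symbol, 396 with several, 1193 with none) and were updated through gene numbers for 10817 of them. limma 3.58.1 in R 4.3.3 (lmFit, eBayes, treatment as the only term, 3 residual and 3.46 prior degrees of freedom, two-sided) was run on 7811 probe sets, adjusted by Benjamini-Hochberg over all of them at a threshold of 0.05, and was tested on simulated data. Intervals are 95% and moderated. A gene in a list was represented by its tested probe set of highest mean. All member probe sets were described. From each list up to 4 tested genes with the largest absolute difference were named, as were the 3 nearest profiles of each tested member ranging over at least 1 log2 unit. Members and lists were chosen with earlier results of these data known. The alternatives tried are given in the closing section. No genome build is named by the deposited files. Promoter windows came from RefSeq (GRCm38.p6). Precision is limited by the number of arrays. matplotlib 3.10.9 drew the figures.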

Additional observations from a re-analysis of the deposited data

Results flagged for a closer look

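Alox12e on 102269_at moved in opposite directions in the pairs of equal title number. IL-13 6 lay above saline 6 by 2.25 on the log2 scale, while IL-13 48 against saline 48 gave -1.45, where IL-13 48 was below the floor, so that the decrease is a lower bound in size. Both moved at least 1.5-fold with the main floor. The pair at 48 depended on the floor: it gave -2.63 with the floor at the 10th percentile. With the floor at the 40th percentile, under which both arrays lay, it gave 0.00. Each pair is 1 array against 1, and their difference was not tested. On the second probe set, 161947_f_at, the same pairs gave 1.31 and -0.19. No group held enough arrays for a check of single outlying arrays.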

How the results depend on the processing

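The calls over all probe sets, 1 higher and 3 lower, moved with the processing, and members were called under none of the alternatives run. Floors at the 10th or 40th percentile, no filter, trend and robust settings and title number as a replicate block each gave 0 higher and 0 lower, the filter at the 60th percentile gave 0 higher and 1 lower, and quantile normalization gave 0 higher and 3 lower. Leaving out 1 array gave 0 to 3 higher and 0 to 10 lower. The replicate block (the 4 arrays of 6 and 48) gave log2 differences of 1.35 for Alox15 and 0.40 for Alox12e on 102269_at. The differences 48 minus 6 of saline and of IL-13 correlated at 0.132 across tested probe sets, from 1 pair of differences. The numbers were therefore not taken to pair the arrays. Alox15 and 161947_f_at kept their direction in all 14 alternatives, from 0.71 to 1.62 and from 0.14 to 1.24. The direction turned on leaving out 1 array for Alox12e on 102269_at (-0.33 to 1.94), Ltc4s (-0.53 to 0.25) and Lta4h (-0.06 to 0.12). It also turned for Pla2g1b (-1.40 to 0.48), Mgst2 (-0.68 to 1.37), Ptges (-0.07 to 0.82), Ptger4 (-0.65 to 0.42), Ptgdr2 (-0.01 to 0.33), Ptafr (-0.05 to 0.54), Ephx1 (-0.44 to 0.01) and Cyp2c38 (-0.32 to 0.76). The cause was not tested. With the other saline array as control, the pair at 6 gave 2.02 and the pair at 48 gave -0.90 for 161947_f_at. The marker sums without their genes of widest range, and the members' median under each alternative, were added after seeing the data. That median lay between -0.06 and 1.24. Ptgs2, the second Ltc4s probe set and 23 of the 66 listed pathway genes with a probe set were too dim to test.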

Other observations

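Several pathway genes were too dim to be tested, and their values are given without comparison. Fpr2, a receptor for lipoxins and formyl peptides, gave 15.51 (saline 6) and 26.93 (saline 48) against 79.53 (IL-13 6), 45.54 (IL-13 18) and 42.12 (IL-13 48), above the floor on IL-13 6 only. Alox8, a lipoxygenase of skin, read between 43.51 and 75.85. The prostaglandin E receptor genes Ptger1 and Ptger2 read at most 79.37 and 100.8, and the prostaglandin D receptor gene Ptgdr was below the floor on all 5 arrays. The cytokine genes Il1b and Il6, known inducers of Ptgs2, were below the floor on all 5 arrays, at most 51.96 and 50.6. Tnf read 156.7 on IL-13 6 and 119.3 on saline 48, and between 44.47 and 51.97 on the other 3.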
